A study of Mus musculus with 16 samples.

Results

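The AP-1 and immediate early genes Fos, Fosb, Fosl1, Fosl2, Jun, Junb, Jund, Egr1, Atf3 and Ier2 were examined in RNA-Seq profiles of mouse mammary adipose tissue. They are 10 of the 23179 genes listed in the deposited matrix and were taken by name. No threshold on their values defined them, though they were chosen with earlier results of these data known. All 10 were among the 21218 genes tested. The tissue was the 9th mammary fat pad of female C57BL/6NCrl mice, on the side opposite the 4th pad, into which E0771 mammary cancer cells had been injected. All 4 groups were wild type and all received the tumor cells, so no group was free of a tumor.

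Mice arrived at 8 weeks of age and, after 1 week, were given either a low-fat diet (10% of kcal from fat) or a high-fat diet (60% of kcal) for 15 weeks before surgery. CON-LFD mice ate the low-fat diet throughout and had a sham operation. The other groups had diet-induced obesity (DIO). DIO-HFD mice had a sham operation and stayed on the high-fat diet, DIO-LFD mice had a sham operation and were switched to the low-fat diet, and DIO-VSG mice underwent vertical sleeve gastrectomy, the surgical removal of a large portion of the stomach, and were switched to the low-fat diet. Tumor cells followed 7 weeks after surgery, in week 22, and tissue was taken 4 weeks later. Each group held 4 libraries, and 1 library came from 1 animal.

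AP-1 is a transcription factor made of a pair of proteins joined through a leucine zipper. Jun proteins (Jun, JunB, JunD) pair with each other or with Fos proteins (c-Fos, FosB, Fra-1 from Fosl1, Fra-2 from Fosl2), while Fos proteins need a partner of another family. Fos, Fosb, Jun, Junb, Egr1, Atf3 and Ier2 are immediate early genes: their transcription starts within minutes of growth factors, cytokines, stress or tissue handling, needs no new protein and soon stops. In fat and mammary tissue they are read out in most cell types, and their mRNA is known to rise during tissue dissection, a step whose timing was not given for these samples.

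The bases upstream of Fos, Fosb, Jun and Junb are shown, because the groups of libraries did not overlap for them in at least 1 comparison described further on. Jund also met this rule, but its RefSeq window (chr8:70697489-70697738) ends ahead of the GENCODE start of the gene at position 70698949, so it is not shown, and it held 0 of the motifs searched. RefSeq promoter windows (GRCm38.p6) were found for 7 of the 10 members. The 250 bases before the start of transcription are given 5′ to 3′ on the strand of the gene, with motif matches in capitals. The windows are chr12:85473640-85473889 (plus strand) for Fos, chr7:19310046-19310295 (minus strand) for Fosb, chr4:95052223-95052472 (minus strand) for Jun and chr8:84978749-84978998 (minus strand) for Junb.
Fos: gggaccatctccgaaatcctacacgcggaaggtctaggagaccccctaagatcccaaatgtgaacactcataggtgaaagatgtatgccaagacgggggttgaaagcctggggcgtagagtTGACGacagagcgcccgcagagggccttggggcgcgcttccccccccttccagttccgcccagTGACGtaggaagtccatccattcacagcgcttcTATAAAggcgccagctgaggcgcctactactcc
Fosb: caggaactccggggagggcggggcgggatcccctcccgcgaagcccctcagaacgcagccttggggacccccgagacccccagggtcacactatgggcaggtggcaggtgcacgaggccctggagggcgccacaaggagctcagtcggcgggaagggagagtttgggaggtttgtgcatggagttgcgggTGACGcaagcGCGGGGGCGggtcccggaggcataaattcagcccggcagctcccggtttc
Jun: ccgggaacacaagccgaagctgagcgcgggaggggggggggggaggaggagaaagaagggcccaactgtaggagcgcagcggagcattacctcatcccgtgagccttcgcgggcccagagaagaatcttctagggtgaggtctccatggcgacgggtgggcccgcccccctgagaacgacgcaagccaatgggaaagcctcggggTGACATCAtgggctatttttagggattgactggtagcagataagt
Junb: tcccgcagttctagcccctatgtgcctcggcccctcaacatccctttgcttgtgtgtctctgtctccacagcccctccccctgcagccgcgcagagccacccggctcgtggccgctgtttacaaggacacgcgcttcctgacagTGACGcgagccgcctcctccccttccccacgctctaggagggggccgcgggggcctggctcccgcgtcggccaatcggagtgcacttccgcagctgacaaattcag

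Both strands of each window were searched for the letters of known sites. TGACG, the core of the cAMP response element that CREB and ATF proteins bind, was found upstream of Fos (from positions -129 and -66, counted back from the start), Fosb (-60), Junb (-106) and Atf3 (-7, on the other strand). It is present in 17.77% of 32851 mouse promoter windows of this length. TGACATCA, a variant AP-1 site, was found upstream of Jun only (-45) and in 2.93% of all windows. GCGNGGGCG, a site of Egr proteins, was found upstream of Fosb (-50) and Fosl2 (-79) and in 4.70% of all windows, and the Fos window also held a TATA box, TATAAA (-33), as 12.37% of windows do. The full cAMP response element TGACGTCA, which contains TGACG, the AP-1 consensus TGANTCA and the CArG box of the serum response element were in 0 of the 7 windows, against 1.55%, 6.75% and 1.47% of all windows. Sites more than 250 bases upstream were not searched. As with Jund, the windows of Fosl2 (chr5:32136222-32136471) and Atf3 (chr1:191183334-191183583) do not adjoin the GENCODE starts. Those starts are at 32135801 and 191218039, so both windows lie inside the genes. The match is one of letters within this window and says nothing of binding in these tissues.

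Total reads per library were 46907377 to 57610899, and the values used are normalized counts, reads divided by a size factor for each library. The lowest member value was 70.8 normalized counts (69 reads), above the floor of 3 reads. Low members still carry counting error: Fosb in CON-LFD rested on 111 to 170 reads a library, with a coefficient of variation of 12.5% between mice. Adipocyte markers were present in every library, with summed levels of 442083 to 1717061 normalized counts over 10 genes. Other tissue also contributed unevenly: the sum over 10 B cell markers ran from 420 to 80987 in CON-LFD, from 1206 to 106880 in DIO-HFD, from 19266 to 43901 in DIO-LFD and from 72807 to 84804 in DIO-VSG. Libraries with few and many lymphocyte transcripts thus lay within the same group in CON-LFD and DIO-HFD. DIO-VSG was high throughout, with every library above every DIO-LFD library. In bulk tissue, fewer cells of a type and less RNA per cell cannot be told apart.

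Per kilobase of exon, Jund was the most abundant member, at 3766 ± 577 normalized counts per kb (SD, n = 16 libraries), and it was above Junb in 16 of 16 libraries. Junb (1354 ± 292) and Jun (1314 ± 380) were not separated beyond their spread, with Junb the higher in 9 of 16. Ier2, a short protein of the nucleus and cytoplasm, followed at 1010 ± 234. Egr1 (691 ± 393) and Fos (640 ± 426) changed places between libraries, with Egr1 the higher in 9 of 16. Fosl2 was at 397 ± 178, Fosl1 at 212 ± 331 and Atf3 at 167 ± 103. Fosl1 was above Atf3 in only 5 of 16 libraries, so the order of these means rests on a few high values. Fosb, at 36.8 ± 19.1, was the least abundant and lay below Atf3 in 16 of 16.

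Jun family transcripts therefore made up most of the AP-1 mRNA. Of the summed Fos and Jun family level per kb, the Fos family held 13.2% ± 1.80 in CON-LFD, 18.6% ± 6.70 in DIO-HFD, 18.5% ± 7.80 in DIO-LFD and 13.2% ± 2.50 in DIO-VSG (SD, n = 4). The ranges overlapped, from 11.7 to 15.8% in CON-LFD against 11.6 to 25.4% in DIO-HFD. Within the Jun family, Jund held 56.7 to 60.6% on average in each group. These shares are given without a test.

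**Figure D1:**
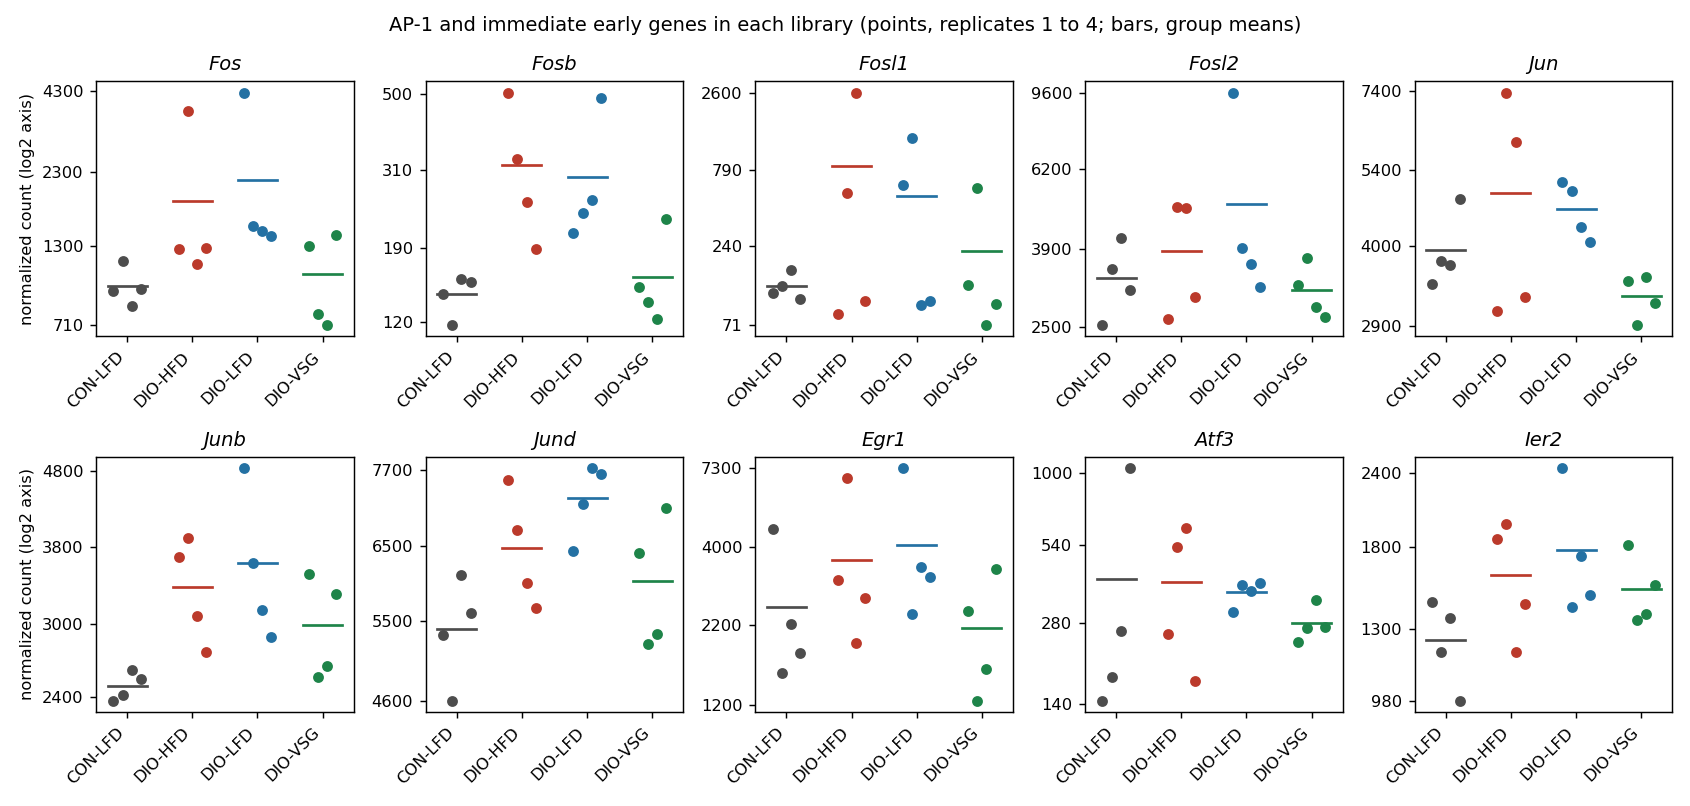
Normalized counts (vertical axes, log2 spacing, different for each gene) of the 10 members in the 16 libraries, with groups on the horizontal axis; points are libraries in the order of their replicate numbers and bars are group means. Fos reached 3694 in 1 DIO-HFD library and 4255 in 1 DIO-LFD library, while the Junb values of CON-LFD (2372 to 2608) lay below all those of DIO-HFD and DIO-LFD.

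Among the Fos family, Fos, the partner most often induced with Jun, was at 923, 1159, 822 and 935 normalized counts in CON-LFD replicates 1 to 4, and the DIO-HFD libraries were at 1271, 3694, 1131 and 1286. It was at 4255, 1524, 1463 and 1405 in DIO-LFD and at 1304, 774, 709 and 1424 in DIO-VSG. Every DIO-LFD library was above every CON-LFD library, and in both DIO-HFD and DIO-LFD a single library stood far above the other 3. In DIO-VSG, 2 libraries were below all of CON-LFD and 2 were above.

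Fosb, a Fos protein known for long-lived splice forms in brain, was at 142, 118, 157 and 154 normalized counts in the CON-LFD libraries and at 503, 333, 253 and 189 in DIO-HFD. The DIO-LFD libraries were at 209, 237, 257 and 486 and the DIO-VSG libraries at 149, 136, 122 and 229. All 8 libraries of DIO-HFD and DIO-LFD were above all 4 of CON-LFD, and 3 of the 4 DIO-VSG libraries lay within the CON-LFD range. The Fosb libraries at the top were not those at the top for Fos: DIO-HFD replicate 1 and DIO-LFD replicate 4 were highest here. DIO-LFD replicate 4 also held the highest sum of skeletal muscle markers (138502, against 438 to 32017 in the other libraries). Their part in its Fosb value was not tested.

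Fosl1, which encodes Fra-1, a Fos protein often raised in invasive tumor cells, had the widest spread. It was at 117, 129, 165 and 107 normalized counts in CON-LFD, at 84.2, 549, 2627 and 102 in DIO-HFD, at 620, 1293, 96.3 and 103 in DIO-LFD and at 132, 595, 70.8 and 97.2 in DIO-VSG. Values of 549 or more occurred in 5 libraries of 3 groups and in none of CON-LFD, and the other libraries lay at 165 or below. Fosl2, which encodes Fra-2, was at 2526 to 4157 in CON-LFD, 2613 to 4995 in DIO-HFD, 3139 to 9628 in DIO-LFD and 2647 to 3722 in DIO-VSG. Its highest value came from DIO-LFD replicate 1, the library that was also highest for Fos.

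Among the Jun family, Jun was at 3439, 3764, 3708 and 4819 normalized counts in CON-LFD. The DIO-HFD libraries were at 3085, 7350, 6032 and 3258, and values were 5158, 4967, 4305 and 4063 in DIO-LFD and 3471, 2919, 3527 and 3180 in DIO-VSG. The DIO-VSG libraries lay below all DIO-LFD libraries. The DIO-HFD group split into 2 high and 2 low libraries: replicates 2 and 3, with the high Jun values, had summed B cell markers of 3706 and 1206, against 106880 and 66318 in replicates 1 and 4. The part of lymphoid content in the Jun values was not tested within the group.

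Junb, a Jun protein that can hold back Jun, was tight in CON-LFD, at 2372, 2412, 2608 and 2538 normalized counts. It was at 3692, 3914, 3081 and 2753 in DIO-HFD, 4846, 3619, 3135 and 2886 in DIO-LFD and 3506, 2553, 2638 and 3288 in DIO-VSG. All DIO-HFD and DIO-LFD libraries were above CON-LFD, while DIO-VSG overlapped with it.

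Jund, the Jun protein present without a stimulus in most cells, was at 5323, 4602, 6094 and 5601 normalized counts in CON-LFD, and the DIO-HFD libraries were at 7535, 6733, 5983 and 5657. It was at 6424, 7147, 7736 and 7635 in DIO-LFD and at 6395, 5226, 5337 and 7082 in DIO-VSG. Only DIO-LFD was clear of CON-LFD. The Jund gene, 1 exon on chromosome 8 (70698949 to 70700616, plus strand, GRCm38), overlaps the antisense gene Gm11175, whose level was 33.8 to 39.1% of that of Jund. The libraries were stranded, but the strand setting of the counting was not given in the sources used here, so reads of this pair cannot be told apart. Genes on the opposite strand likewise overlap Fosl1 (Ccdc85b, at 51.8 to 1087% of the level of Fosl1), Junb (Prdx2, at 98.3 to 244.7% of Junb) and Jun (Junos, at 2.5 to 5.8% of Jun), and the same limit applies to these members.

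Egr1, a zinc finger factor, ran from 1530 to 4605 normalized counts in CON-LFD, 1926 to 6767 in DIO-HFD, 2396 to 7291 in DIO-LFD and 1239 to 3373 in DIO-VSG, and all 4 ranges overlapped. Ier2 ran from 983 to 1447, 1189 to 1967, 1418 to 2448 and 1347 to 1814 in the same order. Atf3, a stress-induced factor that pairs with Jun proteins, was at 145, 176, 261 and 1037 in CON-LFD, 254, 533, 625 and 171 in DIO-HFD, 306, 384, 365 and 392 in DIO-LFD and 239, 267, 339 and 271 in DIO-VSG. Its highest library was a control, CON-LFD replicate 4, which also had the highest sum of macrophage markers (115006, against 14272 to 63360 in the other 15). The part of macrophage content in the Atf3 value was not tested.

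**Figure D2:**
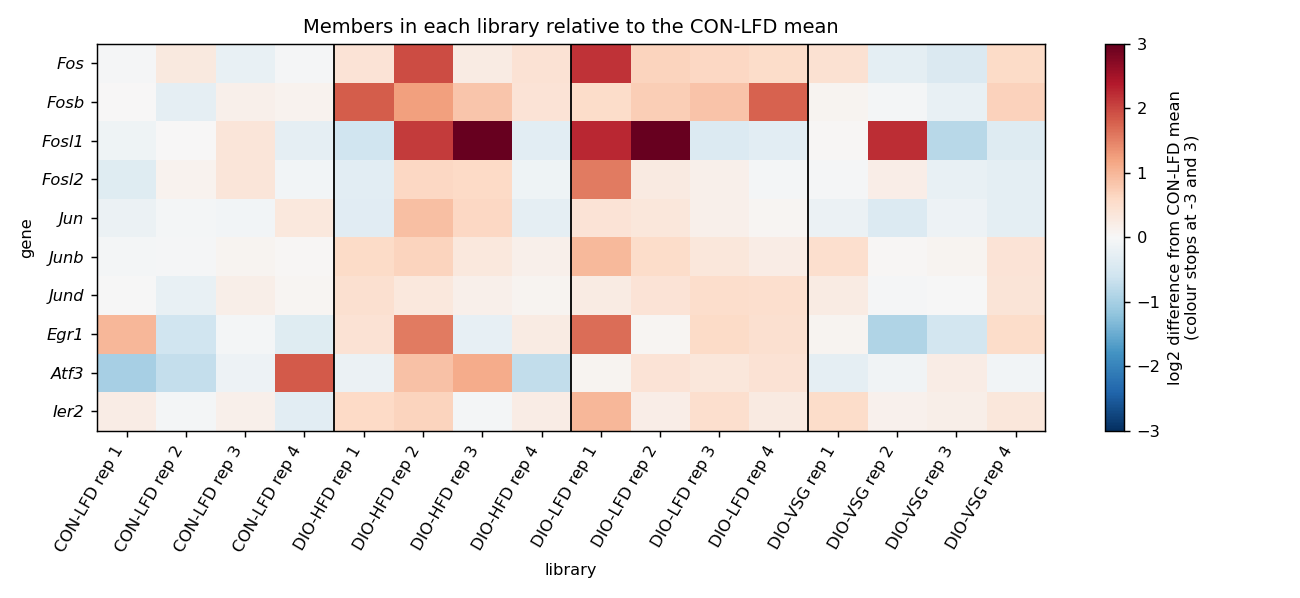
Difference of each library (columns, ordered by group and replicate) from the CON-LFD mean for each member (rows), in log2 units, with colours ending at -3 and 3. DIO-HFD replicate 2 and DIO-LFD replicate 1 were above every CON-LFD library in 9 of 10 members each.

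The high values were concentrated in a few libraries. DIO-LFD replicate 1 was the highest of 16 for 5 members (Fos, Fosl2, Junb, Egr1 and Ier2), and DIO-HFD replicate 2 was among the top 2 for 6 members. Each of these libraries was 1.09 log2 units above the CON-LFD mean on average over the members. DIO-LFD replicate 1 also held the highest sum of erythroid markers (464011 normalized counts, against 18123 to 55821 in the other 15), whose part in its member values was not tested. The remaining DIO-HFD libraries were 0.29, 0.79 and 0.01 above (replicates 1, 3 and 4), the remaining DIO-LFD libraries 0.36 to 0.70 above, and the DIO-VSG libraries between 0.19 below and 0.19 above.

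Members differed in how much they varied between mice of a group. The within-group SD on the log2 scale was 1.64 for Fosl1, a value larger than in 96.0% of genes tested, 0.79 for Atf3, 0.70 for Egr1 and 0.62 for Fos. It was 0.23 for Junb and 0.17 for Jund, against a median of 0.36 over all genes tested. Fold changes of Fosl1, Atf3, Egr1 and Fos accordingly carry wide intervals.

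Obesity was examined by setting DIO-HFD against CON-LFD, where obesity and the diet being eaten cannot be told apart. The paper also reports heavier tumors in DIO-HFD than in every other group. All 10 members had a higher mean log2 level in DIO-HFD, with a median log2 fold change of 0.39, against 0.02 over all genes tested, of which 52.7% were above 0. Without DIO-HFD replicate 2 all 10 were still higher, each by a smaller fold change. Fosb was the furthest from its error, at 320 ± 136 normalized counts in DIO-HFD against 143 ± 17.8 in CON-LFD (SD, n = 4), a log2 fold change of 1.07 ± 0.31 (SE). Junb was at 3360 ± 537 against 2482 ± 110, a log2 fold change of 0.42 ± 0.16. Fos was at 1845 ± 1234 against 959 ± 142, a log2 fold change of 0.76 ± 0.41, and without DIO-HFD replicate 2 this was 0.37.

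Of the members, 0 passed an adjusted P value of 0.05 in limma's moderated test with Benjamini-Hochberg adjustment over all genes, where 0.0377% of genes (8) did. The adjusted P value was 0.227 for Fosb and 0.293 for Junb. At an unadjusted P value below 0.05, 2 members were higher (Fosb and Junb) and 0 lower, where 5.23% of genes were higher. The count was 1 without DIO-HFD replicate 1 or 2 and 4 without replicate 3. The same 2 genes had groups that did not overlap, with DIO-HFD higher, as did 1.76% of genes tested, and their exact two-sided permutation P value was 0.0286, the smallest that 4 against 4 libraries can give. Without DIO-HFD replicate 2, Junb had an unadjusted P value of 0.0625 by limma.

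The other members had log2 fold changes of 1.38 ± 1.07 for Fosl1, 0.50 ± 0.46 for Egr1, 0.36 ± 0.20 for Ier2, 0.27 ± 0.52 for Atf3, 0.26 ± 0.12 for Jund, 0.24 ± 0.23 for Jun and 0.19 ± 0.32 for Fosl2 (SE). Without DIO-HFD replicate 2, Egr1 was at 0.14, Fosl2 at 0.048 and Jun at 0.011. For Atf3, the arithmetic means went the other way, at 396 in DIO-HFD and 405 in CON-LFD, with a single control at 1037. For Fosl1, the mean of 841 ± 1210 in DIO-HFD came from 2 libraries, and without DIO-HFD replicate 3 the log2 fold change was 0.40.

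Marker levels are given beside these values. Mean log2 levels were higher in DIO-HFD for 7 of 7 keratinocyte markers tested (median log2 fold change 1.55), 10 of 10 B cell (1.15), 6 of 7 neutrophil (1.11), 10 of 10 T cell (0.62), 8 of 10 macrophage (0.38), 7 of 7 erythroid (0.36) and 10 of 10 endothelial and mural markers (0.29), while 10 of 10 skeletal muscle markers (-2.42), 9 of 10 adipocyte markers (-0.50) and 8 of 9 mammary epithelium markers (-0.70) were lower, with 0 past the adjusted threshold by limma. With the B cell marker level as a covariate, a fit added after the values were seen, Fosb was at 1.02 and Junb at 0.43. Cell types other than B cells were not tested in this way.

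The comparison of DIO-LFD with CON-LFD asked whether mice returned to the low-fat diet differed from those that had never left it. Here too all 10 members had a higher mean log2 level in DIO-LFD, with a median log2 fold change of 0.50 against 0.02 over all genes, of which 53.1% were above 0. This comparison shares the CON-LFD libraries with the one before it. Fos was at 2161 ± 1396 normalized counts against 959 ± 142, a log2 fold change of 1.00 ± 0.41. Fosb was at 297 ± 128 against 143 ± 17.8 (0.98 ± 0.31), Junb at 3622 ± 871 against 2482 ± 110 (0.52 ± 0.16) and Jund at 7236 ± 599 against 5405 ± 623 (0.42 ± 0.12).

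In this comparison 0 members passed an adjusted P value of 0.05, where 0.00471% of genes (1) did, and the adjusted P values by limma were 0.732 for Fos, 0.587 for Fosb, 0.572 for Junb and 0.519 for Jund. At an unadjusted P value below 0.05, 5 of 10 members were higher (Fos, Fosb, Junb, Jund and Ier2), where 3.23% of genes were, and 3 without DIO-LFD replicate 1. The groups did not overlap for 4 of 10, with DIO-LFD higher (Fos, Fosb, Junb and Jund, exact permutation P = 0.0286 each), where 1.73% of genes did so. Of these, Fosb, Junb and Jund kept an unadjusted P value below 0.05 when any 1 library was left out, and Fos did not: without DIO-LFD replicate 1 its log2 fold change was 0.62 and its unadjusted P value 0.108.

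Ier2 was at 1773 ± 470 against 1244 ± 205 (0.49 ± 0.20), and without DIO-LFD replicate 1 its unadjusted P value was 0.0994 by limma. The rest had log2 fold changes of 1.22 ± 1.07 (Fosl1), 0.69 ± 0.46 (Egr1), 0.48 ± 0.32 (Fosl2), 0.32 ± 0.52 (Atf3) and 0.24 ± 0.23 (Jun). Without DIO-LFD replicate 1, Fosl2 was at 0.12 and Egr1 at 0.37, and without replicate 2 Fosl1 was at 0.52.

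Several marker lists were higher in DIO-LFD as well: B cell (10 of 10, median log2 fold change 2.73), T cell (10 of 10, 1.27), neutrophil (7 of 7 tested, 1.18), keratinocyte (7 of 7 tested, 1.06), erythroid (7 of 7, 0.89) and macrophage (8 of 10, 0.31), with 0 markers past the adjusted threshold by limma. With the B cell covariate, Fos was at 1.21, Fosb at 0.87, Junb at 0.53 and Jund at 0.35. In the same fit Fosl1 was at 2.02 and Jun at 0.49 (unadjusted P = 0.0252 by limma), and Ier2 was at 0.40 (unadjusted P = 0.0781). The part of the other cell types was not tested.

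**Figure D3:**
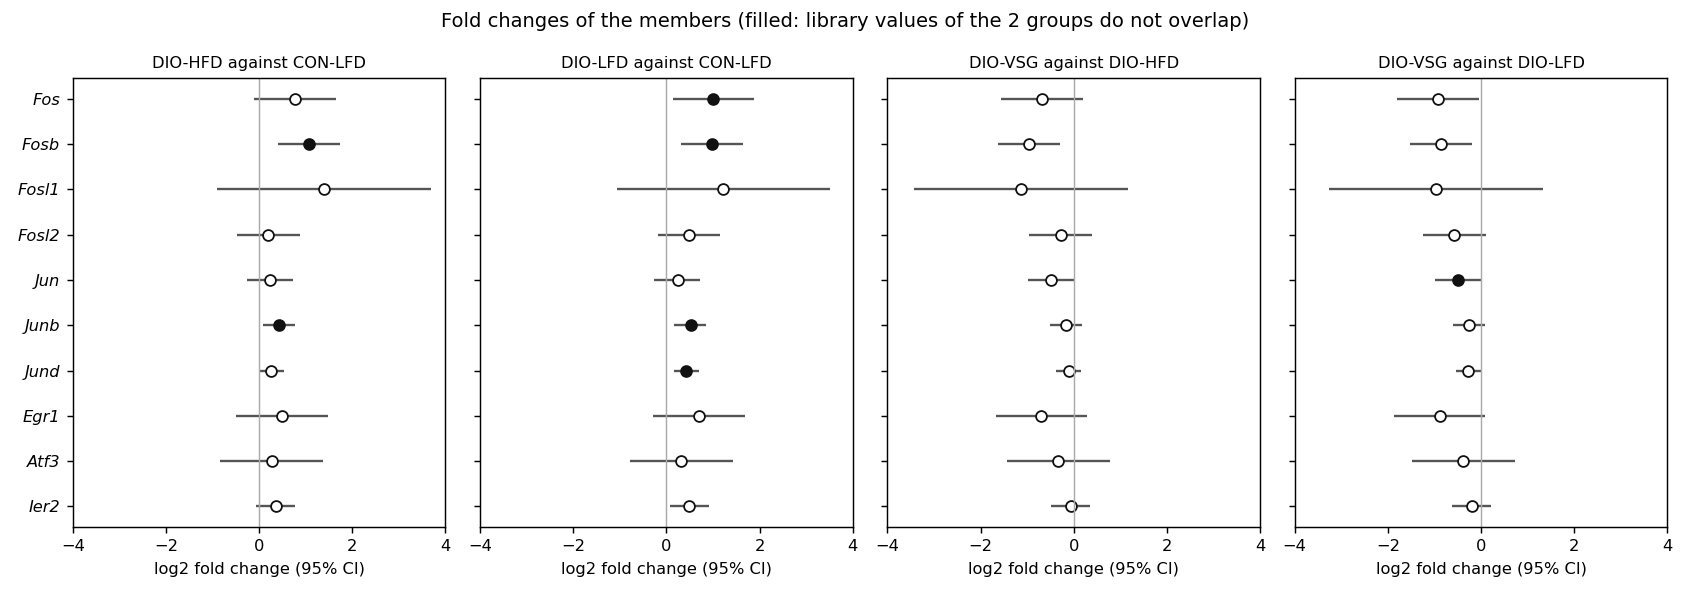
Log2 fold change (horizontal axis) of each member with its 95% confidence interval from limma in 4 comparisons; filled points mark members whose libraries do not overlap between the groups. All points lie above 0 in both comparisons with CON-LFD and below 0 in both of DIO-VSG with the other DIO groups, and the intervals of Fosl1 are the widest.

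Weight loss after surgery was examined by setting DIO-VSG against DIO-HFD. These groups differed in operation, diet and body weight, which cannot be told apart here. All 10 members had a lower mean log2 level in DIO-VSG, with a median log2 fold change of -0.41 against 0.02 over all genes tested, of which 52.5% were above 0. Without DIO-HFD replicate 1 or 2, 1 member was higher. Without replicate 2 the fold change of every member was smaller in size. Fosb was at 159 ± 47.8 normalized counts in DIO-VSG against 320 ± 136 in DIO-HFD, a log2 fold change of -0.95 ± 0.31. Jun was at 3274 ± 281 against 4931 ± 2103 (-0.49 ± 0.23) and Fos at 1053 ± 364 against 1845 ± 1234 (-0.69 ± 0.41). Without DIO-HFD replicate 2, Fosb was at -0.90, but Jun was at -0.27 and Fos at -0.29. The groups overlapped for all 10 members, and 4.22% of genes tested had every DIO-VSG library below every DIO-HFD library.

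Of the members, 0 passed an adjusted P value of 0.05 in this comparison, as did 0.00% of all genes. At an unadjusted P value below 0.05, 1 member was lower (Fosb, unadjusted P = 0.00839, adjusted P = 0.275 by limma) and 0 higher, where 8.12% of genes were lower, so the share of members is near that of genes at large, and the count was 2 without DIO-HFD replicate 1 or 4. For Fosb the exact permutation P value was 0.0571. The others had log2 fold changes of -1.13 ± 1.07 (Fosl1), -0.69 ± 0.46 (Egr1), -0.33 ± 0.52 (Atf3), -0.28 ± 0.32 (Fosl2), -0.17 ± 0.16 (Junb), -0.11 ± 0.12 (Jund) and -0.06 ± 0.20 (Ier2). Without DIO-HFD replicate 2, Egr1 was at -0.34, Atf3 at -0.12, Fosl2 at -0.14, Junb at -0.09 and Ier2 at 0.04. Without replicate 3 Fosl1 was at -0.14 and Atf3 at -0.044, and without replicate 1 Jund was at -0.035.

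Marker levels are given beside these values. The 10 B cell and 10 T cell markers all had a higher mean log2 level in DIO-VSG, with median log2 fold changes of 2.78 and 2.27. All 10 endothelial and mural markers were lower, with a median of -0.72, and their summed level was 68214 to 78255 in DIO-VSG against 90914 to 139663 in DIO-HFD, with no overlap. Mean log2 levels were also lower for 9 of 10 macrophage (median -0.72), 7 of 10 adipose stromal (-0.70) and 5 of 7 keratinocyte markers (-1.57), and higher for 9 of 10 skeletal muscle markers (1.94). Of all these markers, 0 passed an adjusted P value of 0.05 by limma, and of the B cell and T cell markers 0 had an unadjusted P value below 0.05. Of the endothelial and mural markers, 8 were lower at an unadjusted P value below 0.05 by limma, where 8.12% of genes were. Groups did not overlap for 5 of them, against 4.22% of genes. With the B cell covariate, Fosb was at -1.06 (adjusted P = 0.310 by limma) and Jun at -0.24, and Atf3 changed sign to 0.08. In the same fit Fosl1 was at -0.32, Fosl2 at -0.08, Ier2 at -0.16 and Jund at -0.19. The part of the other cell types in these values was not tested.

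The comparison of DIO-VSG with DIO-LFD set surgery against diet change alone. All 10 members again had a lower mean log2 level in DIO-VSG, with a median log2 fold change of -0.53 against -0.02 over all genes, of which 47.3% were above 0, and the comparison shares its DIO-VSG libraries with the previous one. Jun was the member whose libraries did not overlap, at 3274 ± 281 against 4623 ± 523 normalized counts (-0.50 ± 0.23, exact permutation P = 0.0286). Fos was at 1053 ± 364 against 2161 ± 1396 (-0.93 ± 0.41, or -0.54 without DIO-LFD replicate 1), Fosb at 159 ± 47.8 against 297 ± 128 (-0.86 ± 0.31) and Jund at 6010 ± 888 against 7236 ± 599 (-0.28 ± 0.12).

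In this comparison 0 members passed an adjusted P value of 0.05, as did 0.00% of genes. The adjusted P value of Jun was 0.510 by limma over all 16 libraries and 0.0283 when only the 8 libraries of these groups were fitted, a setting in which 1533 genes passed. At an unadjusted P value below 0.05, 3 members were lower (Fos, Fosb and Jund), where 5.41% of genes were, and 1 without DIO-VSG replicate 2 or 3. The 1 member of 10 with groups that did not overlap, and DIO-VSG lower, compares with 5.83% of all genes. The other log2 fold changes were -0.97 ± 1.07 (Fosl1), -0.89 ± 0.46 (Egr1), -0.57 ± 0.32 (Fosl2), -0.38 ± 0.52 (Atf3), -0.26 ± 0.16 (Junb) and -0.20 ± 0.20 (Ier2). Without DIO-LFD replicate 1, Egr1 was at -0.57, Fosl2 at -0.21, Junb at -0.11 and Ier2 at -0.03, and without replicate 2 Fosl1 was at -0.265. Of the lymphocyte markers, 10 of 10 for B cells and 10 of 10 for T cells were higher in DIO-VSG without overlap, with 0 past the adjusted threshold by limma. With the B cell covariate, Fos was at -0.83, Fosb at -0.91, Jun at -0.38 and Jund at -0.31, and the adjusted P values of these 4 members by limma were 0.516, 0.432, 0.515 and 0.452. The B cell sums did not overlap, at 72807 to 84804 in DIO-VSG and 19266 to 43901 in DIO-LFD. B cell content and group therefore cannot be told apart in this fit. Lower in DIO-VSG were 10 of 10 endothelial and mural markers (median -0.44, summed level 68214 to 78255 against 82901 to 105450, with no overlap), 10 of 10 adipocyte markers (-0.42), 9 of 10 macrophage markers (-0.75), 7 of 7 erythroid markers (-0.82) and 5 of 7 keratinocyte markers tested (-0.71), and their part in the member values was not tested.

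Weight loss by diet was examined by setting DIO-LFD against DIO-HFD, where weight and the diet being eaten cannot be told apart. Of the members, 8 had a higher and 2 a lower mean log2 level in DIO-LFD, with a median log2 fold change of 0.11 against 0.01 over all genes, of which 51.6% were above 0. Without DIO-LFD replicate 1, 3 members were higher. The log2 fold change was 0.24 ± 0.41 for Fos, -0.09 ± 0.31 for Fosb, 0.09 ± 0.16 for Junb, 0.17 ± 0.12 for Jund, 0.29 ± 0.32 for Fosl2 and -0.16 ± 1.07 for Fosl1. The 95% interval of Fosb ran from -0.76 to 0.57 and that of Fos from -0.63 to 1.11, so differences in either direction within these bounds remain possible. No member had an unadjusted P value below 0.05 by limma (8.53% of genes did), 0 passed the adjusted threshold (0.00% of genes) and 0 had groups without overlap (4.51% of genes).

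DIO-VSG was also set against CON-LFD. Members were divided, with 6 higher and 4 lower in DIO-VSG and a median log2 fold change of 0.10 against -0.02 over all genes, of which 47.8% were above 0. Fos was at 0.08 ± 0.41 and Fosb at 0.12 ± 0.31, while Junb was at 0.26 ± 0.16, Ier2 at 0.30 ± 0.20 and Jun at -0.26 ± 0.23. The counts of members were 0 at the adjusted threshold (0.00% of genes), 0 at an unadjusted P value below 0.05 by limma (17.8% of genes) and 0 without overlap (7.02% of genes). Whether the differences from CON-LFD in DIO-HFD and DIO-LFD are larger than that in DIO-VSG is the comparison of DIO-VSG with those groups, in which no member passed the adjusted threshold.

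Members did not vary as 1 block between mice. With group means removed, 33 of 45 pairs of members had a positive Pearson's r over the 16 libraries, with a median of 0.20 and a range of -0.43 to 0.82, and 2 pairs passed an adjusted P value of 0.05 in a two-sided permutation test within groups. These were Egr1 with Ier2 (r = 0.82, rho = 0.89, adjusted P = 0.0119 for r) and Fosb with Jund (r = 0.80, rho = 0.79, adjusted P = 0.00675). Without the 2 libraries farthest from the median of the first gene, r was 0.80 and 0.85. Fos with Junb (r = 0.80, adjusted P = 0.0903) and Fos with Egr1 (r = 0.76, adjusted P = 0.0903) missed the threshold, and Fos with Fosb was at -0.02. The genes of a pair share their libraries, depth and cell content.

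**Figure D4:**
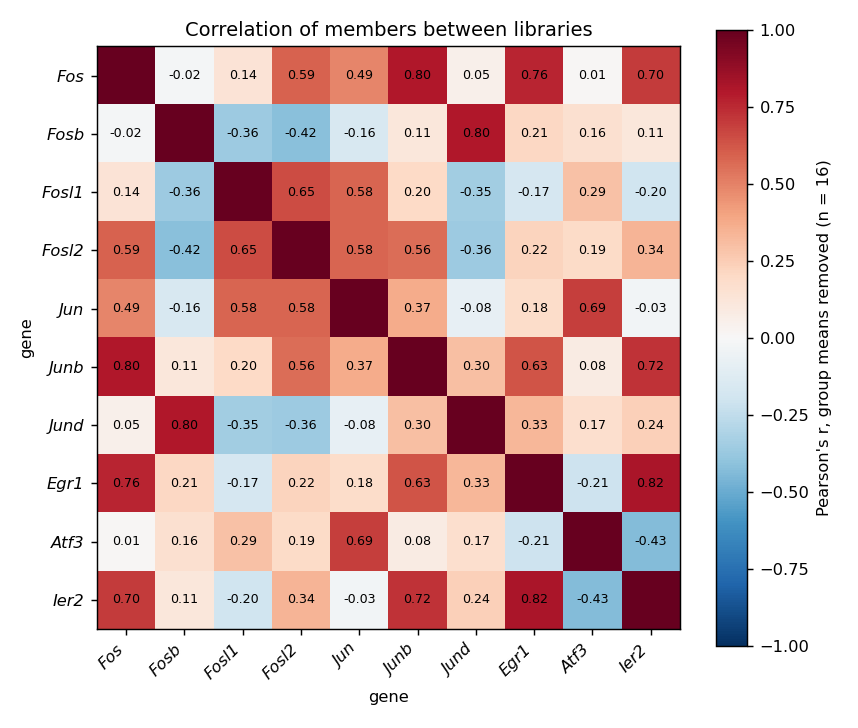
Pearson's r between members (rows and columns) over 16 libraries on the log2 scale after the group means were removed; colour and printed number give r. Fos, Junb, Egr1 and Ier2 have r of 0.63 or more with each other, Fosb and Jund have 0.80, and Fosb with Fos has -0.02.

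Among all genes tested, with group means left in and given as a description over 16 libraries, those most like Fos were Gm10030 (Pearson's r = 0.89), 1700061E17Rik (0.85), Junb (0.85), Mafk, a small Maf protein (0.84), and Tspo, a mitochondrial outer membrane protein (0.84). Those most like Jun included Gipr (0.90), 4930455H04Rik and Cdk10 (0.89 each) and Med25 (0.88). The lists share no gene, and Fos and Jun are not on each other's list.

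Related genes of the pathway were counted in the same fits. Mainly DIO-HFD against CON-LFD and DIO-VSG against DIO-HFD are described. By limma, 0 of the related genes had an adjusted P value below 0.05 in either. Of 15 other leucine zipper partners of AP-1, 10 were higher and 5 lower in DIO-HFD than in CON-LFD, with a median log2 fold change of 0.06. The partners with the smallest P values were Batf2 (135 ± 29.2 against 96.4 ± 15.4 normalized counts, log2 fold change 0.47 ± 0.20, adjusted P = 0.342 by limma) and Mafk (3156 ± 1290 against 1806 ± 324, 0.74 ± 0.34, adjusted P = 0.378). Of the same partners, in DIO-VSG against DIO-HFD, 4 were higher and 11 lower, with a median of -0.09, and Creb5, a CREB family factor, was at 1045 ± 348 against 1974 ± 402 (-0.96 ± 0.27, adjusted P = 0.258).

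Of 24 other immediate early genes, 23 were listed and tested. They had a median log2 fold change of 0.36 in DIO-HFD relative to CON-LFD (17 higher, 6 lower) and of 0.18 in DIO-VSG relative to DIO-HFD (12 higher, 11 lower). The 18 feedback inhibitors induced with them, such as the Dusp phosphatases, had medians of 0.26 and -0.05, and the 23 kinases and factors upstream, such as the MAP kinases, medians of 0.03 and -0.04. Known AP-1 targets, 18 genes that include matrix proteases and cytokines, had medians of 0.58 (15 higher, 3 lower) and -0.50 (3 higher, 15 lower). Of these targets, 4 had an unadjusted P value below 0.05 by limma in each comparison, where 5.23% of all genes were higher in the first and 8.12% lower in the second. Several are also products of macrophages, whose markers had medians of 0.38 and -0.72, and the part of macrophage content was not tested. The 8 heat shock genes, a sign of handling or stress, had medians of 0.11 and -0.05. They were 7 of 8 higher in DIO-LFD than in CON-LFD (median 0.33), where 5 members had an unadjusted P value below 0.05, and 7 of 8 lower in DIO-VSG than in DIO-LFD (-0.15), with 0 past the adjusted threshold by limma. The part of handling in the member values was not tested. In DIO-VSG against CON-LFD, the other immediate early genes had a median of 0.39 (15 higher, 8 lower). At an unadjusted P value below 0.05 by limma, 7 of them were higher and 1 lower, where 17.8% of all genes had such a value. There the feedback inhibitors had a median of 0.33 (14 higher, 4 lower) and the AP-1 targets one of -0.14 (8 higher, 10 lower). Of these genes 0 passed the adjusted threshold.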

How the data were processed

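The authors prepared stranded total RNA libraries and, per the methods, aligned reads with STAR to GRCm38, estimated transcripts with salmon against Gencode, removed genes under 10 counts and normalized with DESeq2, whereas the submitters' processing notes list TopHat2 2.0.7 and HTSeq 0.5.3p9. The values deposited by the authors, although named normalized counts, are log2 values of a variance-stabilizing transformation (5.36 to 21.85). They were inverted to normalized counts, and division by each library's step gave whole reads (within 0.01) for 100.0% of values.

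In R 4.3.3, log2(normalized count + 1), a scale that understates fold changes of low genes, was tested with limma-trend (version 3.58.1) in 1 fit of 16 libraries with group as the only term. A gene was tested where 4 or more libraries reached 10 normalized counts, 6 comparisons were made, tests were two-sided and P values were Benjamini-Hochberg adjusted over all genes. Exact permutation tests used all 70 splits, correlations 100000 permutations. Positions and exon lengths are from GENCODE M21. Members and lists were chosen with earlier results of these data known. All members are named, with at most 2 genes of every other list and comparison by smallest P, and the 5 genes most like Fos and Jun, of which 1 is not reported here. Replicate libraries differed by far more than counting noise, and no sequencing batch was given in the labels. Alternatives changed the pseudocount, filter, scaling, test, weights, samples and block.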

Additional observations from a re-analysis of the deposited data

Results flagged for a closer look

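In groups of 4 libraries, a member was noted where the gap between its highest or lowest library and the next, divided by the range of the group on the log2 scale, was above Dixon's 95% critical value for 4 samples. Of 40 groups (10 members in 4 groups), 2 passed. Fos in DIO-HFD replicate 2 was at 3694 normalized counts, a ratio of 0.892, and Fos in DIO-LFD replicate 1 was at 4255, a ratio of 0.927. Chance alone passes about 1 in 20 groups, which here is as many as were found.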

How the results depend on the processing

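Over all 60 fold changes of members and 29 alternative settings, 1677 of 1740 values kept their direction and their side of the threshold, 61 changed sign and 2 passed the threshold, and 34 fold changes never changed sign. Leaving out a library of a group outside the comparison, fitting only the 8 libraries compared and the replicate block cannot change a fold change. Values kept in these settings thus say nothing of how firm its direction is. The report prints 51 of the 60 fold changes. Of the other 9, in DIO-LFD against DIO-HFD and DIO-VSG against CON-LFD, 8 changed sign at least once, and only the 51 are detailed here. With only the 8 libraries compared, 1 member (Jun) was called in DIO-VSG against DIO-LFD (-0.495, adjusted P = 0.0283 by limma), beside 1533 genes in place of 0. With library weights, 1 member (Jund) was called in DIO-LFD against DIO-HFD (0.37, adjusted P = 0.0315 by limma). DIO-HFD replicate 4 then had a weight of 10.92, against 0.22 to 2.35 in the others, and the genes called in DIO-HFD against CON-LFD were 4196 in place of 8. The weights also turned the sign against CON-LFD in DIO-HFD for Fosl1 (-0.073), Jun (-0.12), Egr1 (-0.194) and Atf3 (-0.179), in DIO-VSG against DIO-HFD for Fosl1 (0.184), Junb (0.083), Jund (0.064), Atf3 (0.585) and Ier2 (0.055), and in DIO-LFD against DIO-HFD for Fosb (0.568) and Fosl1 (0.838). The B cell covariate, added after the data were seen, turned Atf3 in DIO-VSG against DIO-HFD (0.084), Fosl1 in DIO-LFD against DIO-HFD (0.263), and Fosb (-0.041) and Jun (0.114) in DIO-VSG against CON-LFD. Scaling to library totals moved the median of all genes in DIO-HFD against CON-LFD from 0.02 to 0.16, and 5 members in place of 2 then had an unadjusted P value below 0.05 (limma). With library weights that count was 0 in place of 2 there, 0 in place of 1 in DIO-VSG against DIO-HFD, and 4 in place of 0 in DIO-LFD against DIO-HFD, where 10 of 10 members were then higher.

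Leaving out 1 library at a time gave, in log2 units, ranges from -0.064 to 0.881 for Atf3 in DIO-HFD against CON-LFD, -0.011 to 0.934 for Atf3 in DIO-LFD against CON-LFD and -0.2 to 0.042 for Ier2 in DIO-VSG against DIO-HFD. In DIO-LFD against DIO-HFD they were -0.144 to 0.638 (Fos), -0.358 to 0.155 (Fosb), -0.864 to 0.828 (Fosl1), -0.069 to 0.47 (Fosl2) and -0.057 to 0.193 (Junb), and in DIO-VSG against CON-LFD -0.09 to 0.245 (Fos) and -0.067 to 0.233 (Fosb). The cause of these changes was not tested. With group means left in, 15 pairs of members in place of 2 passed the adjusted threshold for correlation. The median correlation of deviations gave no sign that the same replicate number pairs libraries, at 0.02 for 24 same-numbered pairs and 0.00 for 72 others. Of 16 libraries, 7 correlated best with their own number, a count that was not tested against chance. With the replicate block, 0 members passed the adjusted threshold in any comparison (by limma), and those with an unadjusted P value below 0.05 were 3 in place of 2 in DIO-HFD against CON-LFD and 2 in place of 3 in DIO-VSG against DIO-LFD. How far read depth limits the comparisons was not tested: the lowest member value was 69 reads.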

Other observations

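The genes most like Fosl1 over the 16 libraries, looked up after its values had been seen, were Nppb (Pearson's r = 0.98), a natriuretic peptide, and Hmga2, a chromatin protein of embryonic and tumor cells, Ptprn, a receptor-type phosphatase of secretory granules, Gm15093 and Col2a1, a cartilage collagen (0.97 each). All 5 were highest in DIO-HFD replicate 3, the library at 2627 normalized counts for Fosl1, and for each the 5 highest libraries were the same 5 as for Fosl1. Hmga2 was at 4217 normalized counts in DIO-HFD replicate 3, 1599 in DIO-LFD replicate 2, 771 in DIO-HFD replicate 2, 676 in DIO-VSG replicate 2 and 611 in DIO-LFD replicate 1, with a median of 44.5 over all 16. Ptprn followed the same course, from a median of 34.6 to 2586 in DIO-HFD replicate 3. The AP-1 targets Plaur and Mmp13, a protease receptor and a collagenase, shared 4 of those 5 libraries among their highest 5, and Mmp3, a further matrix protease, shared 1. The origin of these transcripts was not tested.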
